A study of Rattus norvegicus with 26 samples.

Results

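The corticosteroid receptors and 8 genes that glucocorticoids induce were followed in the hippocampus of aging rats that had eaten 3 amounts of vitamin D3. Corticosterone, the glucocorticoid of the rat, crosses into the brain and binds 2 receptors there, both of which are transcription factors. The mineralocorticoid receptor binds it with high affinity and is rich in hippocampal neurons, while the glucocorticoid receptor is occupied mostly at the daily peak and during stress. Occupied receptors enter the nucleus and raise a set of target genes, so the levels of such targets are widely read as a record of recent hormone exposure.

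The 10 genes are Nr3c1, which encodes the glucocorticoid receptor, Nr3c2, which encodes the mineralocorticoid receptor, and the induced genes Fkbp5, Tsc22d3, Zbtb16, Sgk1, Pdk4, Errfi1, Ddit4 and Nfkbia. These 10 members were chosen by gene symbol among the 14506 genes with a symbol of their own on the array. Each of the 10 had exactly 1 such probe set, and all 10 were among the 8485 genes whose mean passed the intensity filter of 6.94 log2.

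RNA came from a block of hippocampal tissue of each of 26 male Fisher 344 rats aged 18 months, on 1 Affymetrix Rat Gene 1.0 ST array per rat. The purified diet they had eaten held vitamin D3 at 100 IU/kg (low, 8 rats), 1000 IU/kg (control, 9 rats) or 10000 IU/kg (high, 9 rats). They were housed in pairs, 14 cages were represented, 12 of them by both rats, and 1 rat of a pair carried a tail mark. All values below are log2 expression values, in which a difference of 1 is a doubling, and the number of arrays limits their precision.

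The arrays were alike in level, with medians between 6.92 and 6.96, and markers of hippocampal cells were present. All 8 neuronal markers, 4 of 7 dentate granule, 4 of 5 CA1, 4 of 5 CA2 and 3 of 4 CA3 markers passed the intensity filter. Of 8 choroid plexus markers only Ttr passed, and it lay between 6.69 and 12.91 over the rats. Among the low rats 1 stood apart in the mean of the microglial markers, which spanned 9.58 to 10.23 on the low, 9.60 to 9.76 on the control and 9.61 to 9.77 on the high diet. In a tissue block, fewer cells of a type and less RNA per cell cannot be told apart.

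Both receptors were nearly level across the rats. Nr3c1 (probe set 10804132) had a lowest, median and highest value of 11.00, 11.11 and 11.19 on the low diet, of 11.00, 11.04 and 11.13 on the control diet and of 10.88, 11.05 and 11.21 on the high diet. The 3 ranges overlap, and both the lowest and the highest rat were on the high diet. Means were 11.10 ± 0.06, 11.05 ± 0.05 and 11.04 ± 0.09 on the low, control and high diets (SD, n = 8, 9 and 9). High minus low was -0.06 (95% interval -0.13 to 0.01), and 8 of 9 high rats lay below the low mean. The unadjusted p of 0.0706 became 0.704 after Benjamini-Hochberg adjustment over all tested genes in limma, so no difference in the glucocorticoid receptor was shown. With rats left out in turn the unadjusted p in limma ran from 0.00933 (without high rat 23) to 0.180 (without high rat 19). It was 0.0385 with quantile normalization. Adjusted p in these 3 fits was 0.731, 0.844 and 0.651.

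Nr3c2 (probe set 10810539) had a lowest, median and highest value of 11.78, 11.86 and 11.93 on the low, 11.55, 11.84 and 11.95 on the control and 11.66, 11.87 and 11.93 on the high diet. Control rat 17 lay below every other rat. Means were 11.86 ± 0.06, 11.82 ± 0.11 and 11.84 ± 0.09 on the low, control and high diets (SD, n = 8, 9 and 9). High minus low was -0.02 (95% interval -0.11 to 0.06, adjusted p = 0.928 in limma), so no difference was shown here either.

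Of the induced genes, Fkbp5 encodes a co-chaperone that binds the receptor complex and lowers its affinity for hormone, Tsc22d3 encodes GILZ, a mediator of anti-inflammatory glucocorticoid action, and Zbtb16 encodes the transcriptional repressor PLZF. Fkbp5 (probe set 10831940) had a lowest, median and highest value of 9.15, 9.50 and 9.67 on the low, 9.34, 9.43 and 9.68 on the control and 9.34, 9.40 and 9.68 on the high diet. The diets overlapped almost fully, and high minus low was -0.02 (95% interval -0.15 to 0.11).

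Tsc22d3 (probe set 10939516) had a lowest, median and highest value of 7.54, 7.70 and 8.02 on the low, 7.58, 7.79 and 8.24 on the control and 7.70, 7.90 and 8.21 on the high diet. Its medians were ordered by dose, the ranges overlapped, and 3 of 9 high rats exceeded every low rat. Means were 7.75 ± 0.17, 7.83 ± 0.21 and 7.95 ± 0.18 on the low, control and high diets (SD, n = 8, 9 and 9). High minus low was 0.19 (95% interval 0.02 to 0.36), a ratio of 1.14. This was the 1 difference among the 10 genes with an unadjusted p under 0.05, at 0.0316, and it did not pass the threshold, with an adjusted p of 0.680 in limma. The unadjusted p moved across 0.05 with single rats. With rats left out in turn it ran from 0.0117 (without low rat 8) to 0.0746 (without low rat 3) in limma. Without low rat 2, 3, 5 or 6, or high rat 19, 21 or 24, it lay between 0.0542 and 0.0746 in limma. The difference itself stayed between 0.16 and 0.23. Of all tested genes, 7.22% had an unadjusted p under 0.05 between high and low, so 1 of 10 is near that share.

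Zbtb16 (probe set 10917116) had a lowest, median and highest value of 10.10, 10.41 and 10.45 on the low, 10.25, 10.39 and 10.64 on the control and 10.32, 10.42 and 10.54 on the high diet. The medians nearly coincided, and 4 of 9 high rats lay above every low rat. High minus low was 0.08 (95% interval -0.03 to 0.19, adjusted p = 0.779 in limma).

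Sgk1 encodes a kinase that regulates ion channels and transporters, Pdk4 a kinase that switches off pyruvate dehydrogenase and so spares glucose, and Errfi1 an inhibitor of the epidermal growth factor receptor. Ddit4, also called REDD1, restrains the growth kinase mTORC1, and Nfkbia encodes IκBα, which holds NF-κB in the cytoplasm. Sgk1 (probe set 10717331) had a lowest, median and highest value of 12.10, 12.62 and 12.84 on the low, 11.86, 12.60 and 12.80 on the control and 12.35, 12.56 and 12.70 on the high diet. Its means of 12.55 ± 0.25, 12.49 ± 0.29 and 12.53 ± 0.11 lay close together (SD, n = 8, 9 and 9 on the low, control and high diets), and the values of the high diet spanned the narrowest range.

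Pdk4 (probe set 10860900) had a lowest, median and highest value of 8.16, 9.05 and 9.58 on the low, 7.92, 8.88 and 9.63 on the control and 8.25, 8.85 and 9.07 on the high diet. Medians were lower with dose, and the 3 ranges overlapped, that of the high diet being the narrowest. Means were 8.92 ± 0.48, 8.77 ± 0.52 and 8.69 ± 0.33 on the low, control and high diets (SD, n = 8, 9 and 9). High minus low was -0.23, a ratio of 0.852, with a 95% interval from -0.64 to 0.17 and an adjusted p of 0.833 in limma. The interval is wide because rats on the same diet differed so much in this gene.

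Errfi1 (probe set 10874193) had a lowest, median and highest value of 11.23, 11.50 and 11.89 on the low, 11.18, 11.49 and 11.73 on the control and 11.33, 11.49 and 11.63 on the high diet. The 3 medians were nearly equal. Ddit4 (probe set 10832920) had a lowest, median and highest value of 9.26, 9.61 and 9.97 on the low, 8.87, 9.49 and 10.00 on the control and 9.21, 9.67 and 9.85 on the high diet. Nfkbia (probe set 10890024) had a lowest, median and highest value of 7.84, 8.29 and 8.73 on the low, 7.51, 8.20 and 8.90 on the control and 7.93, 8.26 and 8.53 on the high diet. In both genes the lowest and the highest rat were on the control diet, which enclosed the other ranges. High minus low was -0.01 for Errfi1, -0.06 for Ddit4 and -0.09 for Nfkbia, with 95% intervals of -0.16 to 0.14, -0.30 to 0.19 and -0.39 to 0.21.

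**Figure D1:**
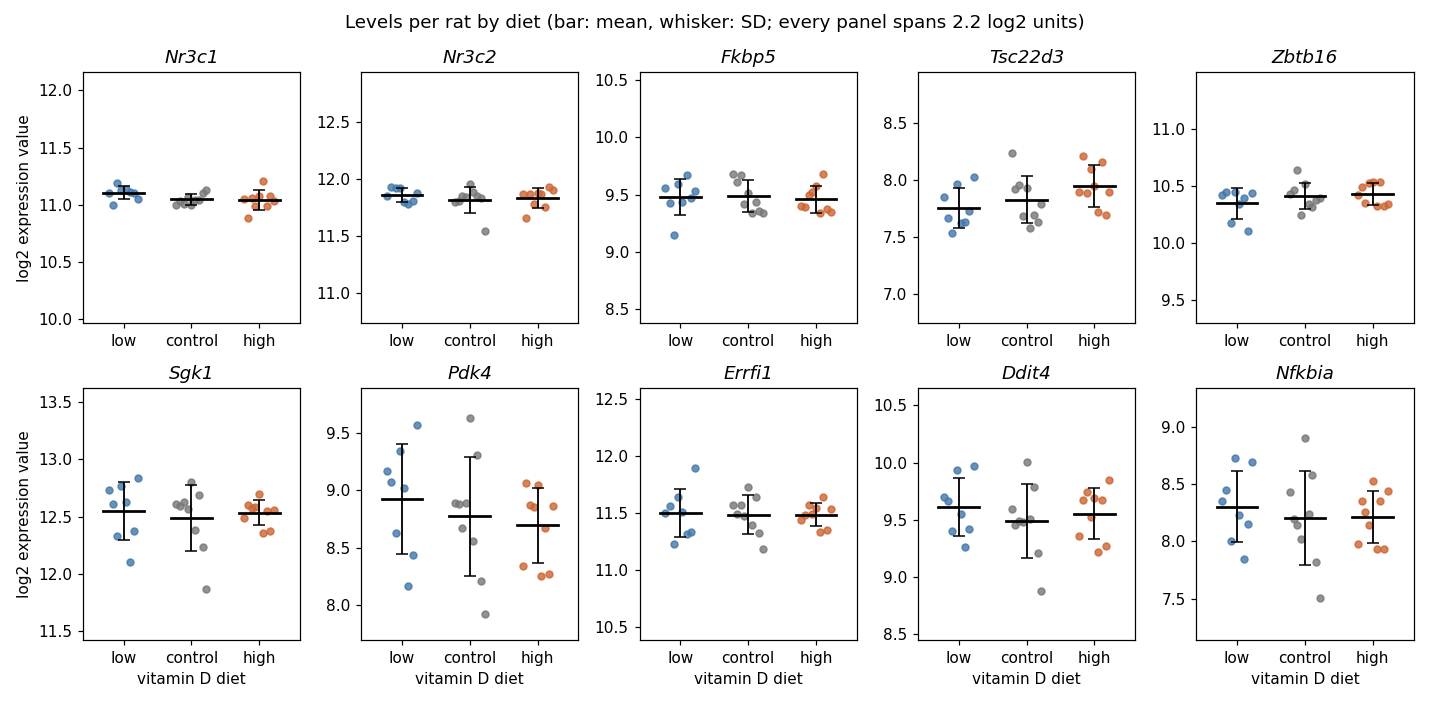
Log2 expression values (y axis) of the 10 genes in each rat (points), by vitamin D diet (x axis: low, control, high); bars are means and whiskers SD, with 8, 9 and 9 rats. Each panel spans the same number of log2 units, so the height of a cloud can be compared: Pdk4 spread most widely within a diet, while the 3 means of each gene lay close together.

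The diets were compared in a single fit of all genes. With adjusted p under 0.17 as the threshold, the lower of 2 error rates that the study's design names, limma's moderated F-test called 0 of the 10 genes and 0% of all tested genes. Members had unadjusted p from 0.0886 (Tsc22d3) to 0.985 (Errfi1), so 0 of 10 was under 0.05, against 4.62% of all tested genes. Between high and low, 0 genes were called, and 2 of 10 members were higher, with a median difference of -0.02 over the members and 0.01 over all genes.

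High minus control was positive for 7 of 10 members, with a median of 0.01, and 0 of them had an unadjusted p under 0.05 in limma, against 4.63% of all genes. The difference reached 0.12 for Tsc22d3 (95% interval -0.05 to 0.29) and -0.08 for Pdk4 (-0.47 to 0.32). Low minus control was positive for 7 of 10, with a median of 0.05 (all genes -0.0043), and again 0 members had an unadjusted p under 0.05, against 2.27% of all genes. Here Pdk4 had the widest interval (0.15, from -0.25 to 0.56), and Ddit4 had 0.12 (-0.12 to 0.37). The intervals included 0 for 9 of 10 members between high and low and for 10 of 10 in the other comparisons. High minus low and high minus control share the high rats, and each pair of comparisons shares a diet in the same way, so they are not independent.

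**Figure D2:**
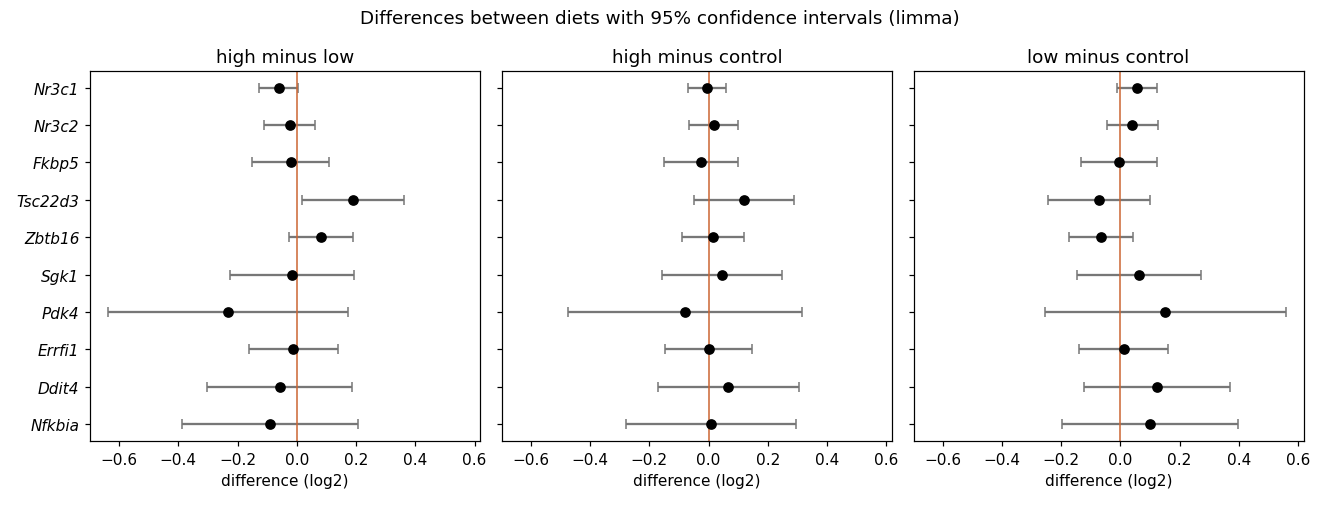
Differences in log2 value (x axis) between diets for the 10 genes (y axis), one panel per comparison; points are estimates and bars 95% confidence intervals from limma over 26 arrays. All intervals cross 0 except that of Tsc22d3 between high and low (0.02 to 0.36), and those of Pdk4 are the widest.

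While diets differed little, rats on the same diet differed widely in the induced genes. The SD of Pdk4 between rats, after subtracting diet means, was 0.448, which ranked 7 of 8485 genes, against a median of 0.0757. Its most distant rats, control rats 13 and 17, differed 3.28-fold. Nfkbia had an SD of 0.327 (rank 15), Ddit4 of 0.269 (rank 39), Sgk1 of 0.229 (rank 70), Tsc22d3 of 0.188 (rank 130) and Errfi1 of 0.164 (rank 222). Fkbp5 and Zbtb16 varied less, with SDs of 0.138 and 0.115, and Nr3c2 (0.0899) and Nr3c1 (0.0667) were close to the median gene. The induced genes thus had wider spreads than the receptors. The intraclass correlation of cage mates lay between -0.270 (Errfi1) and 0.254 (Nr3c1), with -0.113 for Pdk4, and its median over all genes was 0.0426.

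The differences between rats were shared across Sgk1, Pdk4, Errfi1, Ddit4 and Nfkbia, a group of 5 formed after their values were seen. Relative to the diet means, control rat 13 was highest, with a mean over the 5 genes of 0.526 log2 (1.44-fold), followed by low rat 8 at 0.415. Control rat 17 was lowest at -0.618 (0.652-fold), next to low rat 6 at -0.439. All 5 genes lay above their diet mean in both of the high-lying rats and below it in both of the low-lying ones. In rat 13 Pdk4 stood 0.86 and Nfkbia 0.70 above the control mean, while in rat 17 they stood at -0.85 and -0.70 relative to it.

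**Figure D3:**
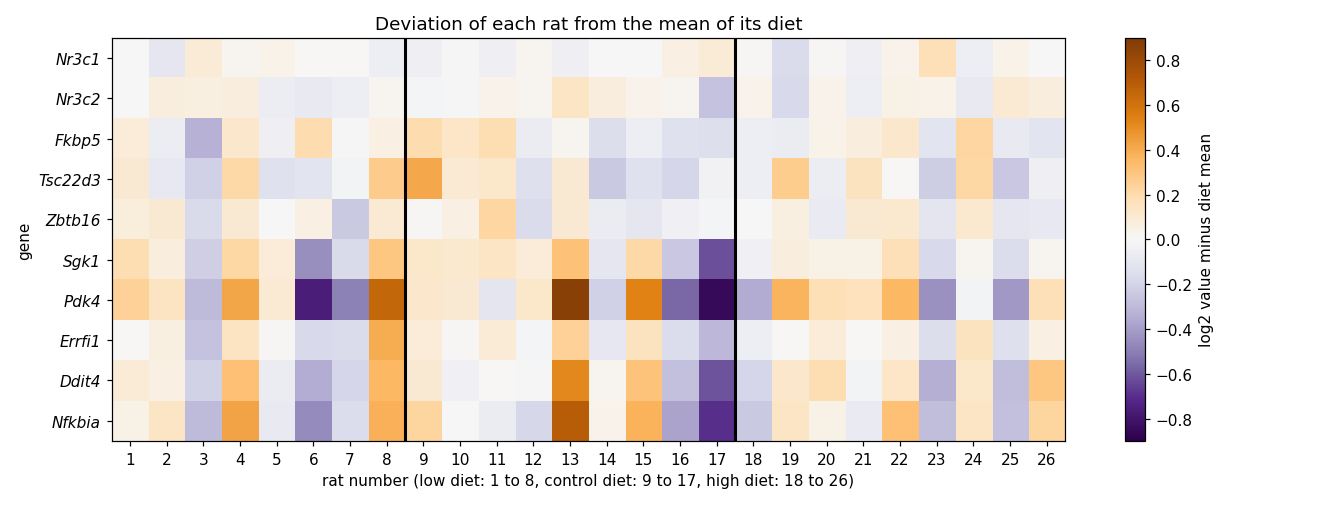
Deviation of each of 26 rats (columns, by number and diet) from the mean of its diet for the 10 genes (rows), in log2 units shown by colour. Columns are coloured alike from Sgk1 down to Nfkbia, as in rats 8 and 13 (above) and rats 6 and 17 (below), while the receptors at the top stay pale.

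Pearson correlations between rats after subtracting diet means were computed for all 45 pairs of the 10 genes. A pair was called where the slope of each gene on the other, with diet in the limma fit, had an adjusted p under 0.05 over all tested genes. The 10 called pairs were the 10 pairs within Sgk1, Pdk4, Errfi1, Ddit4 and Nfkbia. Their r lay between 0.871 (Pdk4 and Errfi1) and 0.964 (Ddit4 and Nfkbia), and Spearman's rho between 0.794 and 0.960. Permutation p, from shuffling rats within diets, was 1e-05 for each r, the smallest that 100000 shuffles can give, and at most 2e-05 for each rho. Adjusted p lay between 3.57e-12 and 7.81e-06 in limma. When the slopes were fitted on ranks, as for a Spearman correlation, 5 of the 10 pairs were called. These were the pairs among Pdk4, Ddit4, Errfi1 and Nfkbia other than Pdk4 with Errfi1. That pair and the 4 pairs of Sgk1 had adjusted p of 0.0821 to 0.102 in limma. Ranks give every gene the same spread, and limma draws the residual variances toward a common value. Even a high rho then gives only a moderate p, so this count does not measure the strength of the rank correlations. Of all pairs of tested genes only 0.00615% had an r of 0.85 or more.

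These correlations were seen within each diet, with r of 0.846 to 0.983 on the low, 0.879 to 0.980 on the control and 0.706 to 0.924 on the high diet. Leaving out the 2 rats farthest from the median left r between 0.838 and 0.944, and leaving out both control rats 13 and 17, chosen after seeing the data, left 0.827 to 0.945. Over the means of the 14 cages r was 0.798 to 0.959 (permutation p 0.00032 to 0.0150), and 6 of the 10 pairs were called in the fit on cage means, which has fewer units. For each of the 5 genes the other 4 were the 4 likest of 8484 genes.

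**Figure D4:**
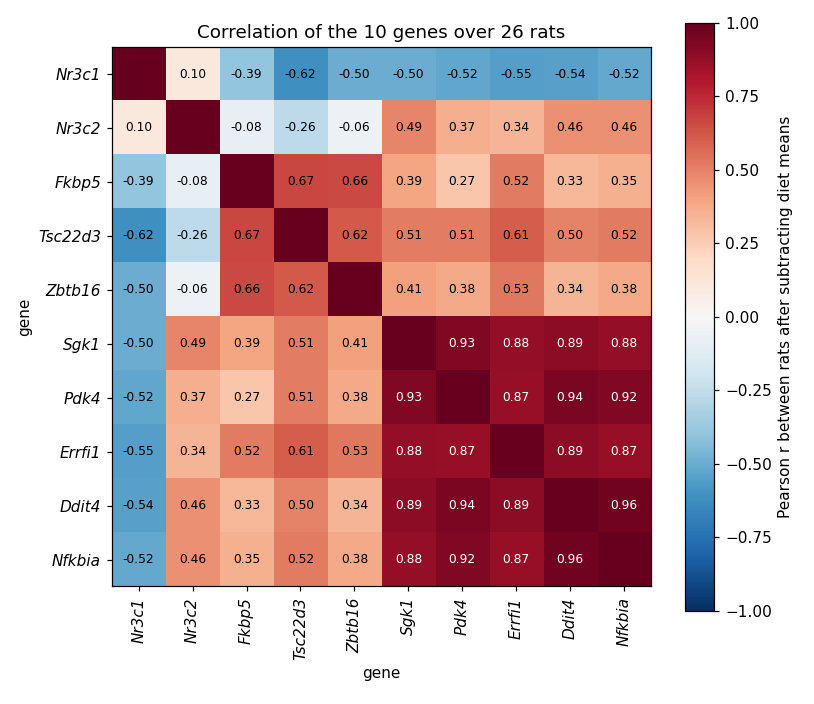
Pearson correlation of the 10 genes over 26 rats after subtracting diet means, from -1 (blue) to 1 (red), with each value printed. The block at the lower right holds the 10 called pairs (0.87 to 0.96), a paler block holds Fkbp5, Tsc22d3 and Zbtb16 (0.62 to 0.67), and Nr3c1 is negative with all 8 induced genes.

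The region before the transcription start of each of the 5 genes is shown because these genes moved together between rats. The sequences are the 250 bases before the start from RefSeq, build GRCr8, and 8 of the 10 genes had such an entry, Nr3c2 and Zbtb16 not among them. Sgk1 has 3 entries, of which 1 is printed. Capitals mark matches on either strand to the TATA box (letters TATAAA), the CCAAT box (letters CCAAT, printed as their reverse complement where the match is on the other strand) or the NF-κB motif GGGNNTTTCC.
Sgk1, chr1:24804832-24805081, minus strand: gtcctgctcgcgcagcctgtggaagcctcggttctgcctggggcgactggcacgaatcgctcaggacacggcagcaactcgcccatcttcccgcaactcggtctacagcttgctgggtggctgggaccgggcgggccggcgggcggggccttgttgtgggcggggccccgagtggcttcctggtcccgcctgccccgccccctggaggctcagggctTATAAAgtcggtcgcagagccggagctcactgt
Pdk4, chr4:34568330-34568579, minus strand: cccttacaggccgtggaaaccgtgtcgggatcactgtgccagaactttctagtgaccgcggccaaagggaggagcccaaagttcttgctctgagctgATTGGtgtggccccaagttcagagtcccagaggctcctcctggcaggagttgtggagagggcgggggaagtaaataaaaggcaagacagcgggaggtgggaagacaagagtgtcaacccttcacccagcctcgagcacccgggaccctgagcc
Errfi1, chr5:166606591-166606840, plus strand: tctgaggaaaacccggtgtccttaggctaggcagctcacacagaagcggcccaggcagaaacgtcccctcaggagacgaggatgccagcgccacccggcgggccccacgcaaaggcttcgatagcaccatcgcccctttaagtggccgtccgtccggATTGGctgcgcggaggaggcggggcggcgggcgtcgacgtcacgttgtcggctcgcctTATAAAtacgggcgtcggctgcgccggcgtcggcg
Ddit4, chr20:28437038-28437287, minus strand: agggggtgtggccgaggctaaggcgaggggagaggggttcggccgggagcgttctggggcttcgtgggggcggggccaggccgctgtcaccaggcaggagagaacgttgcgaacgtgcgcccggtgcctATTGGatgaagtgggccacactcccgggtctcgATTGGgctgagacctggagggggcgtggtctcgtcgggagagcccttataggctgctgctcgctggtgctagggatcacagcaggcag
Nfkbia, chr6:78597073-78597322, minus strand: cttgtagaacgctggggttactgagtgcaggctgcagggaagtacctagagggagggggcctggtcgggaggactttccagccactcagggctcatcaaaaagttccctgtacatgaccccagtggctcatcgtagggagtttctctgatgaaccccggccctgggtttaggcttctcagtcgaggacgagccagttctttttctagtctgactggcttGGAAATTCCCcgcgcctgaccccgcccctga

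The glucocorticoid response element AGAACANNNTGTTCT and its half-site AGAACA, which it contains, were searched on both strands too. Neither was found in any of the 13 windows of the members, while 0.012% of all 33469 windows held the full element and 17.5% the half-site. TATAAA began 33 bases before the start in Sgk1 (55 bases in another of its entries), 35 bases before it in Errfi1 and 44 bases before it in Tsc22d3. It was in 4 of the 13 windows of the members, against 12.9% of all windows. CCAAT was found in Pdk4, Errfi1, Ddit4 (at 2 positions), Fkbp5 and Tsc22d3 (at 2 positions). These were 5 of the 13 windows, against 34.0% of all windows. Both motifs were thus present in members outside the tight group too. The NF-κB motif was found only in Nfkbia, 31 bases before the start. This was 1 of the 13 windows, against 1.3% of all windows. A match describes letters and is neither a site nor a cause, and no match says only that these letters are not in these windows.

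The other induced genes formed a looser trio. Fkbp5 and Tsc22d3 had r = 0.668 (rho = 0.679), Fkbp5 and Zbtb16 0.657 (rho = 0.659) and Tsc22d3 and Zbtb16 0.615 (rho = 0.694). Permutation p of r was 0.00031, 0.00067 and 0.00162, but adjusted p over all genes was 0.147 to 0.257 in limma, so none of these pairs was called. With the genes of the tighter group, their r lay between 0.275 (Fkbp5 and Pdk4) and 0.607 (Tsc22d3 and Errfi1). All 28 pairs of induced genes were positive, with a median r of 0.568, and 19 of the 45 member pairs had an r of 0.5 or more, against 3.46% of all pairs of tested genes. In low rat 6, whose mean over the 5 genes was -0.439 relative to the low mean, the mean of this trio was 0.042. Fkbp5 stood there at 9.67, the highest of the low rats and 0.19 above their mean, Zbtb16 0.05 above it and Tsc22d3 at -0.12 relative to it.

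The r of Nr3c1 with all 8 induced genes was negative, from -0.39 with Fkbp5 to -0.62 with Tsc22d3, and rho was -0.44 to -0.66. Permutation p of r lay between 0.0007 and 0.0429, while adjusted p over all genes was 0.350 to 0.663 in limma, so none of the 8 was called. Tsc22d3 ranked 6 from the lowest of 8484 genes in its r with Nr3c1, Errfi1 27 and Ddit4 31. The negative sign was seen within each diet, with r of -0.56 to -0.34 on the low, -0.89 to -0.50 on the control and -0.86 to -0.26 on the high diet. It was also seen with any 1 rat left out (r from -0.70 to -0.30). Over the means of the 14 cages r was -0.67 to -0.40, with permutation p from 0.0119 to 0.183. The 8 induced genes correlated with each other, so their signs with Nr3c1 are not independent. Nr3c1 and Nr3c2 had r = 0.10 (rho = 0.14, permutation p = 0.612 and 0.501), which turned to -0.24 without the 2 rats farthest from the median.

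Nr3c1 also correlated with the activity-induced immediate early genes, which neurons switch on within minutes of firing. Its r with their mean (Egr1, Arc, Junb, Nr4a1, Npas4 and Dusp6, the 6 of 10 that passed the filter) was 0.699 (permutation p = 1e-05, the smallest possible, at most 0.0003 adjusted over 30 relations). The Spearman correlation was 0.630 (permutation p = 0.00132), and r was 0.735 without rats 19 and 23, the farthest from the median. All 6 were positive with Nr3c1, from 0.391 (Dusp6) to 0.657 (Npas4). The same mean had r = -0.513 (rho = -0.380) with the mean of the 5 tightly correlated genes, and -0.328 without control rat 17. Here the immediate early genes were unequal. Npas4 had -0.683, Egr1 -0.371, Junb -0.348 and Arc -0.224, while Nr4a1 (0.0253) and Dusp6 (0.00088) were near 0. With the immediate early mean as a covariate, chosen after seeing the data, the r of Nr3c1 with the induced genes ranged from -0.69 to -0.19, and the 10 pairs remained called. The part of neuronal activity in these relations was not tested.

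The r of Nr3c2 with the 8 induced genes ran from -0.26 (Tsc22d3) to 0.49 (Sgk1), and none of these pairs was called, with adjusted p from 0.285 upward in limma. Yet 514 genes, 6.06% of those tested, had a called slope on Nr3c2, 251 positive and 263 negative. This count rests on control rat 17: without it, 0 genes were called. Nr3c2 followed the second principal component of all genes, which holds 13.8% of the variance between rats, with r = 0.908 and rho = 0.811 (permutation p = 1e-05 for both, the smallest possible, 0.00015 adjusted). Without rats 17 and 19 that r was 0.779. With field markers the r of Nr3c2 was 0.605 for CA2, where it is known to be high, 0.564 for CA3 and 0.545 for CA1 (permutation p 0.0109 to 0.0120, 0.0719 adjusted for each), and rho was 0.251, 0.190 and 0.191 (permutation p 0.225 to 0.368). Without rats 17 and 19 these r were 0.0608, 0.00563 and -0.0558, so they rest on those rats. With the astrocyte markers r was -0.309 (permutation p = 0.108, 0.360 adjusted) and rho -0.52 (permutation p = 0.0100), and r was -0.477 without rats 17 and 19.

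The share of genes that followed each member differed. Nr3c1 had 6 called genes (0.0707%), Zbtb16 had 2 (0.0236%), and Fkbp5 and Tsc22d3 had 0. Sgk1 had 38 (0.448%), Pdk4 28 (0.33%), Errfi1 33 (0.389%), Ddit4 29 (0.342%) and Nfkbia 31 (0.365%), each including the other 4 genes of the tight group. Control rat 13 carried much of these counts: without it they were 19 for Sgk1, 14 for Pdk4, 12 for Ddit4 and 11 for Nfkbia. Without control rat 17, 24 were called for Sgk1, 21 for Errfi1 and 19 for Ddit4. Counts of 21 for Errfi1 without low rat 3 or high rat 23, and of 19 for Ddit4 without low rat 6 or control rat 16, were the other changes beyond 1.5 times. For the small counts, leaving out any of 11 rats brought Nr3c1 to between 0 and 3, and any of 8 rats moved Zbtb16 to between 0 and 9 and Fkbp5 to between 1 and 7. Tsc22d3 reached 1 without high rat 19.

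The genes most like each member, outside the 10, were named by their r over 26 rats after subtracting diet means. For Pdk4 they were Arrdc2 (0.868) and Arrdc3 (0.866), which encode arrestin-domain adaptors, and Aspa (0.815), the aspartoacylase of oligodendrocytes. The same 3 genes led for Ddit4 (0.878, 0.858 and 0.819) and for Nfkbia (0.865, 0.855 and 0.837). For Sgk1 they were Zfp189 (0.841), Arrdc2 (0.826) and Il6r (0.793), the interleukin 6 receptor. For Errfi1 they were Klf9 (0.828), a Krüppel-like factor that glucocorticoids induce, Zfp189 (0.802) and Il6r (0.793).

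Fkbp5 was followed most closely by Plxna2 (0.787), a semaphorin receptor, Gpd1 (0.738), the glycerol 3-phosphate dehydrogenase of the cytosol, and Gja1 (0.729), the astrocytic connexin of gap junctions. Zbtb16 was followed by Gpd1 (0.750), the thiamine transporter Slc19a3 (0.746) and Smarcd2 (0.734), a subunit of a chromatin remodelling complex. Tsc22d3 had Rabif (0.727), Cables1 (0.697) and Aamp (0.690). For the receptors the likest genes were Tgfbr1 (0.785), a receptor of transforming growth factor β, Frmd4b (0.749) and Mex3b (0.712) with Nr3c1, and Nfib (0.848), Zbtb20 (0.840) and Abi1 (0.821) with Nr3c2. Nfib and Zbtb20 encode transcription factors of hippocampal development. Without control rat 17 the r of the last 3 were 0.733, 0.722 and 0.699.

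A list of 32 other genes known to respond to glucocorticoids was read beside the members; 29 were on the array under a symbol of their own and 21 passed the intensity filter. Of the 21, 20 had a positive mean r with the 8 induced genes, with a median of 0.459, against 50.5% of all genes and a median of 0.0023. A called positive slope on at least 1 induced gene was found for 10 of the 21, namely Il6r, Gpd1, Klf9, Arrdc2, Bcl6, Cdkn1a, Slc2a1, Arrdc3, Mt1 and Pim3, against 0.46% of the genes outside the members (39 of 8475). The list was chosen with earlier results of these data known, so these counts are a description and not an independent test. Il6r (mean r 0.707), Gpd1 (0.672) and Klf9 (0.670) led. Il6r and Klf9 had called slopes on Sgk1, Pdk4, Errfi1, Ddit4 and Nfkbia, and Gpd1 on Sgk1, Zbtb16 and Errfi1. The genes outside the list that followed all 5 of the tight group included Aspa, Zfp189, Gadd45b, a stress-inducible gene of DNA repair and demethylation, and Lfng, a modifier of Notch receptors; these were named after their values were seen.

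Some genes of this list, named after their values were seen, had unequal r with the 2 groups of members; the difference in r was not tested. Arrdc3 had a mean-of-5 r of 0.868 but 0.202 with the mean of Fkbp5, Tsc22d3 and Zbtb16, and Pim3, a kinase, had 0.712 and 0.00556. Gpd1 leaned the other way, with 0.650 and 0.817. Per1, a clock gene with glucocorticoid response elements, had 0.560 and 0.558. Dusp1, a phosphatase that dampens MAP kinases, had 0.550 with the first group and -0.0424 with the second. Sult1a1, a sulfotransferase, was the 1 gene with a negative mean r (-0.114). Over the means of cages 1 of the 21 had a called slope. Without control rat 13 the count was 8 of the 21, and 24 genes were called in all, 0.283% of the genes outside the members.

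**Figure D5:**
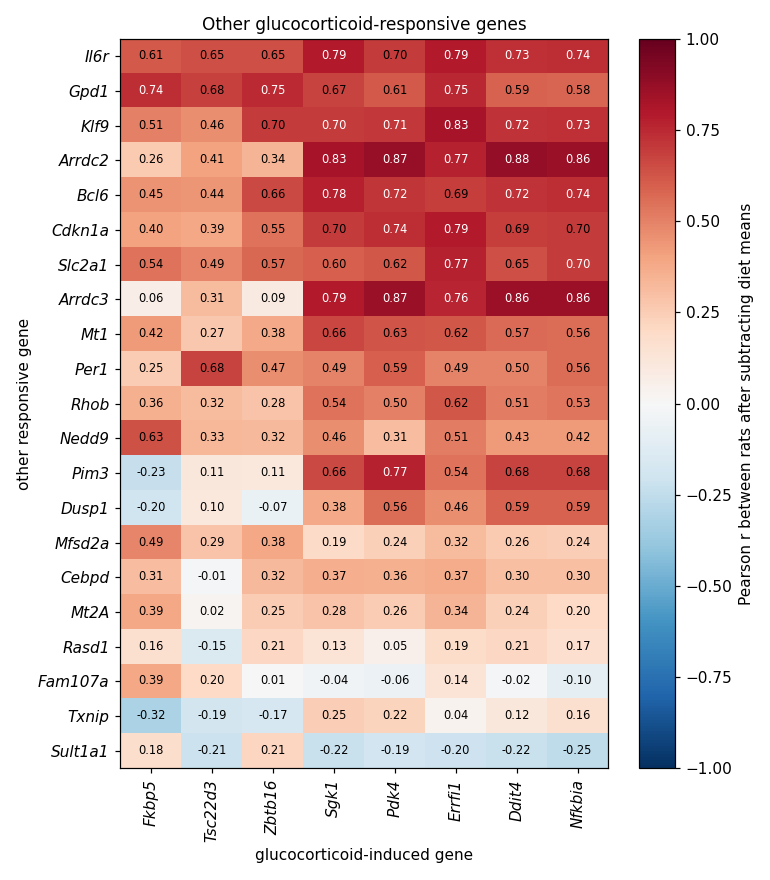
Pearson correlation over 26 rats after subtracting diet means between 21 other glucocorticoid-responsive genes (rows, by mean r) and the 8 induced members (columns), from -1 (blue) to 1 (red). Il6r, Gpd1 and Klf9 lead the rows, while Arrdc2, Arrdc3 and Pim3 are high with Sgk1 to Nfkbia and low with Fkbp5; Sult1a1 is last.

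By diet, 0 of these 21 genes were called in the F-test of limma, and 2 had an unadjusted p under 0.05, against 4.62% of all tested genes. These were Mt2A, a metallothionein, at 0.0395 and Sult1a1 at 0.0430 (adjusted p = 0.998 for both in limma). Sult1a1 had a high minus low difference of -0.27 and Mt2A of -0.11.

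Genes of the machinery around the receptors were read in the same way. Of 13 tested chaperones and co-chaperones 0 had a called slope and 6 a positive mean r; the highest were Hspa8 (0.233), Hsp90ab1 (0.187) and Fkbp4 (0.0787). Of 10 coactivators and corepressors 0 had a called slope, with the highest mean r for the coactivators Ncoa3 (0.372), Ncoa1 (0.300) and Ncoa2 (0.183). Of 5 genes of steroid metabolism and transport 0 had a called slope. Abcb1a, the drug efflux pump of brain vessels, had a mean r of 0.162, and Hsd11b1, which regenerates active glucocorticoid inside cells, one of -0.231. Of the 3 tested genes of the corticotropin-releasing hormone system and related receptors, Crhbp (-0.295), Pgr (-0.324) and Avpr1a (0.0760), 0 had a called slope. By diet the F-test called 0 genes of these lists, and 1, the co-chaperone St13, had an unadjusted p under 0.05, against 4.62% of all tested genes. The 2 genes of smallest unadjusted p in each list were St13 (0.0383, high minus control 0.07) and Ptges3 (0.0938, 0.07) among the chaperones, Smarca4 (0.142, -0.03) and Tsg101 (0.197, 0.04) among the coregulators, Abcb1a (0.0652, -0.12) and Hsd11b1 (0.0661, -0.03) in steroid metabolism and transport, and Pgr (0.0931, -0.05) and Crhbp (0.358, -0.03) in the last list, with adjusted p of 0.998 each in limma. Of the 11 tested endothelial and mural markers, Abcb1a among them, 0 were higher in high minus control, with a median difference of -0.09, and 5 were lower at an unadjusted p under 0.05, against 4.63% of all genes in either direction. Their part in the value of Abcb1a was not tested.

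The makeup of the tissue was set beside the mean of the 5 tightly correlated genes, as a description over the same 26 arrays. Its r was 0.176 with the mean of 9 astrocyte markers, 0.247 with 9 oligodendrocyte markers, 0.235 with 7 microglial markers, -0.0163 with 11 endothelial and mural markers, 0.265 with 8 neuronal markers and 0.229 with Ttr. Single rats moved these values. With any 1 rat left out, r ran from 0.0790 to 0.304 for astrocyte, 0.114 to 0.311 for oligodendrocyte and 0.188 to 0.466 for microglial markers. It ran from -0.102 to 0.106 for endothelial and mural markers, 0.142 to 0.341 for neuronal markers and 0.181 to 0.416 for Ttr. Positive were 7 of 9 astrocyte, 8 of 9 oligodendrocyte, 7 of 7 microglial, 6 of 8 neuronal and 5 of 11 endothelial and mural markers. The mean of the oligodendrocyte markers lay at 11.68 to 12.04 on the low, 11.75 to 12.02 on the control and 11.74 to 12.01 on the high diet. With field markers r was 0.447 for CA2 (4 of 4 positive), 0.409 for CA3, 0.110 for CA1 and -0.264 for the dentate granule cells, and without control rat 17 the values were 0.233, 0.207, -0.107 and -0.415. With 11 clock genes r was 0.255. With the astrocyte, oligodendrocyte, microglial, endothelial, choroid plexus or dentate mean as a covariate, the lowest r within the tight group lay between 0.863 and 0.875, and all 10 pairs were called each time. The neuronal, CA1, CA2 and CA3 means were not used as covariates, though those of CA2 and CA3 had the highest r among these marker means. The second principal component had r = 0.522 with the mean of the 5 genes and 0.299 without control rat 17. The mean of Fkbp5, Tsc22d3 and Zbtb16 had r = 0.458 with the astrocyte markers (0.376 to 0.506 with any 1 rat left out). It had 0.382 with the clock genes, 0.368 with neuronal markers, 0.353 with CA2 markers and 0.300 with Ttr. Its r was 0.0347 with the microglial, 0.0583 with the endothelial and mural and -0.140 with the oligodendrocyte markers.

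The tail mark that distinguished the rats of a pair was carried by 13 of the 26 rats. With diet in the model, all 8 induced genes had lower estimates in marked than in unmarked rats, with a median difference of -0.10, as did 66.2% of all genes, whose median was -0.01. The induced genes correlated with each other, so their signs are not independent. Tsc22d3 had a lowest, median and highest value of 7.54, 7.73 and 8.16 in marked and of 7.64, 7.93 and 8.24 in unmarked rats. The difference was -0.14 (95% interval -0.27 to -0.01), and in 10 of 12 cages the marked rat was the lower one. Zbtb16 had 10.10, 10.35 and 10.54 in marked and 10.31, 10.44 and 10.64 in unmarked rats, with a difference of -0.08 (-0.17 to 0.001) and again 10 of 12 cages lower. Pdk4 had -0.20 (-0.52 to 0.13), with 6 of 12 cages lower. In this fit only Tsc22d3 had an unadjusted p under 0.05, at 0.0402, against 5.32% of all genes, and its adjusted p was 0.892 in limma, so 0 genes were called. For Nr3c1 the estimate was 0.03 (-0.02 to 0.09), with the marked rat higher in 10 of 12 cages, and for Nr3c2 it was 0.02, with the marked rat higher in 7 of 12. When marked and unmarked rats were paired within the 12 cages, a fit added after seeing the data, Tsc22d3 had -0.13 (unadjusted p = 0.0182) and Zbtb16 -0.10 (0.0302), and 0 genes were called (adjusted p = 0.766 and 0.811 in limma). The 2 of 10 genes with an unadjusted p under 0.05 there stand against 5.88% of all genes. Within the low and the control diet every induced gene had a negative estimate. Within the high diet the estimate was positive for Fkbp5 (0.10), Errfi1 (0.04), Zbtb16 (0.02) and Sgk1 (0.01). It was negative there for Pdk4 (-0.12), Tsc22d3 (-0.06), Ddit4 (-0.02) and Nfkbia (-0.006). The interaction of the tail mark with diet had an adjusted p of 0.9999 in limma for each of the 10 genes.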

How the data were processed

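Hippocampal RNA of 26 rats was measured on 1 array each, and the deposited table holds log2 values that the authors made. Per the submitters' processing notes the authors' tools were Partek 6.6 and GCRMA, whose roles are not stated. A normalization between arrays, if one was made, would narrow differences shared by many genes. RNA was extracted with TRIzol, per the labels' protocols. Of 29214 probe sets, 15310 had 1 gene symbol in the array annotation, 323 had several and 13581 had none. The probe set of highest mean was kept for each of 14506 genes, and the 8485 genes with a mean no lower than the median probe set (6.94) were tested. No 2 arrays were identical (0 pairs).

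The limma package (version 3.58.1, under R 4.3.3) fitted diets, the tail mark and slopes on each of the 10 genes over all 26 arrays, without a block. Tests were 2-sided, with Benjamini-Hochberg adjustment across the tested genes. A diet difference was called at an adjusted p under 0.17 and a slope under 0.05. Permutation p came from 100000 shuffles of rats within diets (Python 3.11.15). Fits take cage mates as independent. The fits were run on simulated data with known shifts and slopes. Noise there was independent between rats and, apart from genes tied on purpose to a member, between genes. Cages and outlying rats were not simulated, so those runs do not cover them.

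The genes named are the 10 members, the 3 genes of highest r with each, and, of each list, the 2 of smallest p by diet and the 3 of highest mean r with the induced genes; others are said to be chosen after their values were seen. The members and lists were chosen with earlier results of these data known. Alternatives were other normalizations, filters, covariates, weights and priors, cage as a block or as the unit, and each array left out. Serum, behavioural and RNA quality measurements were not analysed here.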

Additional observations from a re-analysis of the deposited data

Results flagged for a closer look

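Nr3c2 in control rat 17 was flagged because, at 11.55 (11.5461), it lay far below the other control rats, of which the nearest had 11.80 (11.7995). The gap took up 0.622 of the range of the 9 control rats. The rule was applied to 30 groups, 10 genes on 3 diets, and chance flags about 1 in 20. The same rat had the lowest mean of Sgk1, Pdk4, Errfi1, Ddit4 and Nfkbia (-0.618 relative to the control mean), and its array had the lowest mean correlation with the others (0.9965, against at most 0.9977). What set this rat apart was not tested.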

How the results depend on the processing

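Under the alternatives run, 0 members were called between diets in the F-test, the contrasts or a trend over log10 dose, also with any array left out. Differences near 0 changed sign without becoming called. With array quality weights, high minus low was 0.0075 for Fkbp5 and 0.0016 for Errfi1, high minus control 0.015 for Nr3c1, -0.013 for Errfi1 and -0.018 for Nfkbia, and low minus control -0.015 for Errfi1. With values over 2 SD removed, which touched 4 values of the members, high minus control was -0.032 for Sgk1, and low minus control 0.043 for Fkbp5 and -0.015 for Sgk1. High minus control was -0.00089 for Errfi1 with quantile normalization and 0.0080 for Nr3c1 with centring on array medians, where low minus control was 0.00099 for Fkbp5. With arrays left out in turn, high minus low ran from -0.069 to 0.0066 for Fkbp5, -0.080 to 0.025 for Sgk1 and -0.050 to 0.045 for Errfi1. High minus control then ran from -0.026 to 0.015 for Nr3c1, -0.017 to 0.040 for Nr3c2, -0.032 to 0.085 for Sgk1, -0.0063 to 0.043 for Zbtb16, -0.19 to 0.029 for Pdk4, -0.038 to 0.031 for Errfi1, -0.011 to 0.13 for Ddit4 and -0.078 to 0.096 for Nfkbia. Low minus control ran from -0.033 to 0.043 for Fkbp5, -0.015 to 0.13 for Sgk1 and -0.045 to 0.050 for Errfi1. Over all genes the removal at 2 SD called 17 in the F-test, against 0 with every value kept. Called pairs numbered 10 to 11 with any array left out and 10 to 14 with covariates, other normalizations or far rats removed; those added were Fkbp5 with Zbtb16 (dentate mean as a covariate, or without low rat 7) and Tsc22d3 with Sgk1, Errfi1, Ddit4 and Nfkbia (second principal component). In the limma fit on ranks, where even a high rho gives only a moderate p, 5 pairs were called. The permutation p of rho was at most 2e-05 for all 10 pairs of the tight group. Over the means of 14 cages, fewer units than the 26 rats, 6 pairs and 1 gene of the list of 21 were called, the list count against 7 to 11 under the other alternatives run for it. Weak correlations changed sign. Over cage means Zbtb16 had -0.0276 with Ddit4 and -0.0312 with Nfkbia. With the astrocyte mean as a covariate Nr3c2 had 0.091 with Fkbp5 and 0.0038 with Zbtb16, and with the oligodendrocyte mean -0.063 with Nr3c1 and 0.032 with Zbtb16. Nr3c1 and Nr3c2 had -0.24 without the 2 farthest rats and -0.17 to 0.41 with arrays left out. With the second principal component as a covariate Nr3c2 had -0.092 with Sgk1, -0.14 with Pdk4, -0.13 with Errfi1, -0.097 with Ddit4 and -0.049 with Nfkbia, and without rats 13 and 17 -0.017 with Pdk4 and -0.0098 with Errfi1. The causes were not tested. Other probe sets of a member could not be tried, as each has 1. Diets share no rat numbers, so only the tail mark could be paired: with the cage as a replicate block, added after seeing the data, 0 members were called, as without it, and Tsc22d3 had -0.13. The second component and the immediate early mean as covariates, leaving out rats 13 and 17, and the repeats for the list were chosen after seeing the data. With 8 or 9 arrays per diet, only differences larger than the printed intervals could be shown.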
